A study of Homo sapiens with 24 samples.

Results

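The hypoxia target genes followed here were 10 named genes of the hypoxia-inducible factor (HIF) response: VEGFA, ADM, SLC2A1, PFKFB4, PDK1, CA9, BNIP3, NDRG1, ANKRD37 and EGLN3. They were picked by gene name, and all 10 were found among the 18915 genes of the count table. They were read in HepG2, a human hepatoma cell line, after 10 h of treatment, in 6 conditions with 4 biological replicate libraries each. The conditions were the DMSO vehicle, bortezomib at 50 nM, nelfinavir at 20 µM, ISRIB at 50 nM, and bortezomib combined with nelfinavir or with ISRIB at these same doses. Bortezomib blocks the proteasome. Nelfinavir, an HIV protease inhibitor, was used to raise activity of the eIF2α-ATF4 branch of the stress response, and ISRIB to blunt it. All values are from 1 cell line at 1 time point and 1 dose of each drug, in cells for which no oxygen limitation is described.

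HIF is a dimer of an alpha subunit, encoded by HIF1A or EPAS1, with the constant partner ARNT. In oxygenated cells, prolyl hydroxylases of the EGLN family mark the alpha subunit, and the VHL ubiquitin ligase then sends it to the proteasome, so proteasome inhibitors are known to let the protein accumulate. The dimer binds a short core motif, ACGTG or GCGTG, near genes for blood vessel growth, glucose uptake, glycolysis, mitochondrial removal and pH control. Several of these genes answer to other pathways as well, and VEGFA is also a known ATF4 target. The libraries hold RNA only, so HIF protein was not measured.

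Promoter windows (RefSeq, GRCh38.p14, from 250 bases before to 50 bases after a start site) were matched for 8 of the 10 genes, in 9 windows, since PDK1 has 2. VEGFA and NDRG1 had no window, so no motif was read for them. The core motif ACGTG, read on both strands, lay in 4 of these 9 windows against 21.4% of 35116 windows of all genes, and GCGTG lay in 4 of 9 against 36.5%. One or the other lay in 7 of 9 windows, and in 7 of the 8 genes, against 48.4% of all windows. The exception was EGLN3. Motifs of 3 other stress pathways had no match in the 9 windows. These were TGATGNAA for ATF4 composite sites (3.62% of all windows), GAANNTTC for heat shock elements (6.77%) and TGACNNNGC for antioxidant response elements (13.3%). The 250 bases before the start of ADM, ANKRD37, BNIP3 and CA9 are printed below, 5′ to 3′ on the strand of the gene, with the core motif (CACGT or CACGC where it reads on the opposite strand) in capitals. The first 3 were called higher with bortezomib than with DMSO (adjusted p under 0.05, edgeR's quasi-likelihood test), as were 27.6% of all genes tested. CA9 is shown because it lay lower, without a call. SLC2A1 was called higher too, but its window matched only after the start, at position 26. PDK1 (at -17 and -8) and PFKFB4 (at -166) had matches before the start and were not called. The printed windows were picked by these changes, so no link between motif and change can be read from them. The windows are chr11:10304823-10305072 (plus strand), chr4:185396591-185396840 (plus), chr10:131981924-131982173 (minus) and chr9:35673678-35673927 (plus).
ADM: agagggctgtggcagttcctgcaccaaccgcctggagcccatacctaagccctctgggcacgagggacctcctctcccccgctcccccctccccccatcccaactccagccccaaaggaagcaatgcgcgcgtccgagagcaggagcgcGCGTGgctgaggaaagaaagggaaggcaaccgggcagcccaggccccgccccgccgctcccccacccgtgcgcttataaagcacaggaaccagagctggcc
ANKRD37: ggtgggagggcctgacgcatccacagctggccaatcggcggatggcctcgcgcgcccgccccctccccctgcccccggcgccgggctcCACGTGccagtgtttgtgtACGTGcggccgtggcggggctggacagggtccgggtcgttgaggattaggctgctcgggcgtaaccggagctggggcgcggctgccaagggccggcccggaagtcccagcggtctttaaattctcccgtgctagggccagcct
BNIP3: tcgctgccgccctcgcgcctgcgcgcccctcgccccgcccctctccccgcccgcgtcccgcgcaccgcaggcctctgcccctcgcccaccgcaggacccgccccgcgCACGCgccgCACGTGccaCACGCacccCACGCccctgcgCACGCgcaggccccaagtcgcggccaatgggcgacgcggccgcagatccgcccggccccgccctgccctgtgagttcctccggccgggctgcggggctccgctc
CA9: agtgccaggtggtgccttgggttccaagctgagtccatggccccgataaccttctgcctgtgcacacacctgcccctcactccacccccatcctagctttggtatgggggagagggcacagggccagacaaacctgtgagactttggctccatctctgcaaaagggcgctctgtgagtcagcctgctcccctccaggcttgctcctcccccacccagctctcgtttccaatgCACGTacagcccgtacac

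A core motif stood once before the start of ADM, at position -101. ANKRD37 carried a palindromic CACGTG and a single ACGTG, whose first bases lay at -162 and -143. BNIP3 carried 1 palindromic site at -134 and 4 further CACGC matches between -143 and -104. CA9 carried 1 match, at -18. A match describes the letters only and is no evidence of binding in these cells.

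Totals ran from 5154533 to 6943164 counts per library, and the share of counts on the 13 mitochondrially encoded genes was 21.5% ± 1.32 in DMSO and 33.8% ± 1.19 in bortezomib (SD, n = 4 each). That share differed by 12.3 percentage points, with a two-sided exact permutation p of 0.0286, the smallest that 4 against 4 libraries can give, and 0.143 after adjustment over 10 such tests. Levels are given as CPM, a gene's counts relative to the scaled library total, with TMM factors, which centres the comparison on most genes. Reads came from near the 3′ end of transcripts, so CPM is not scaled by length and levels are not compared between genes. The 10 hepatocyte markers of the list used were all expressed, at a summed level of 6740 to 14600 CPM, and none of the 7 fibroblast, endothelial and blood markers in the table passed the expression filter, with at most 52 counts for a gene over all libraries. Of the 10 hepatocyte markers, 6 were lower with bortezomib than with DMSO, and 8 were lower with bortezomib and nelfinavir than with bortezomib alone. Their part in the results was not tested. In bulk RNA, a change in every cell and a change in some cells cannot be told apart.

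Of the 10 genes, 9 passed the expression filter. EGLN3 (chr14:34393433-34931980, minus strand), a prolyl hydroxylase and itself a HIF target, had 13 counts over all 24 libraries, in 7 libraries, with at most 4 in any of them. It was not tested, and no fold change is given. CA9 passed narrowly, with 107 counts in all, against 25238 for SLC2A1. Positions are those of GENCODE on GRCh37.

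**Figure D1:**
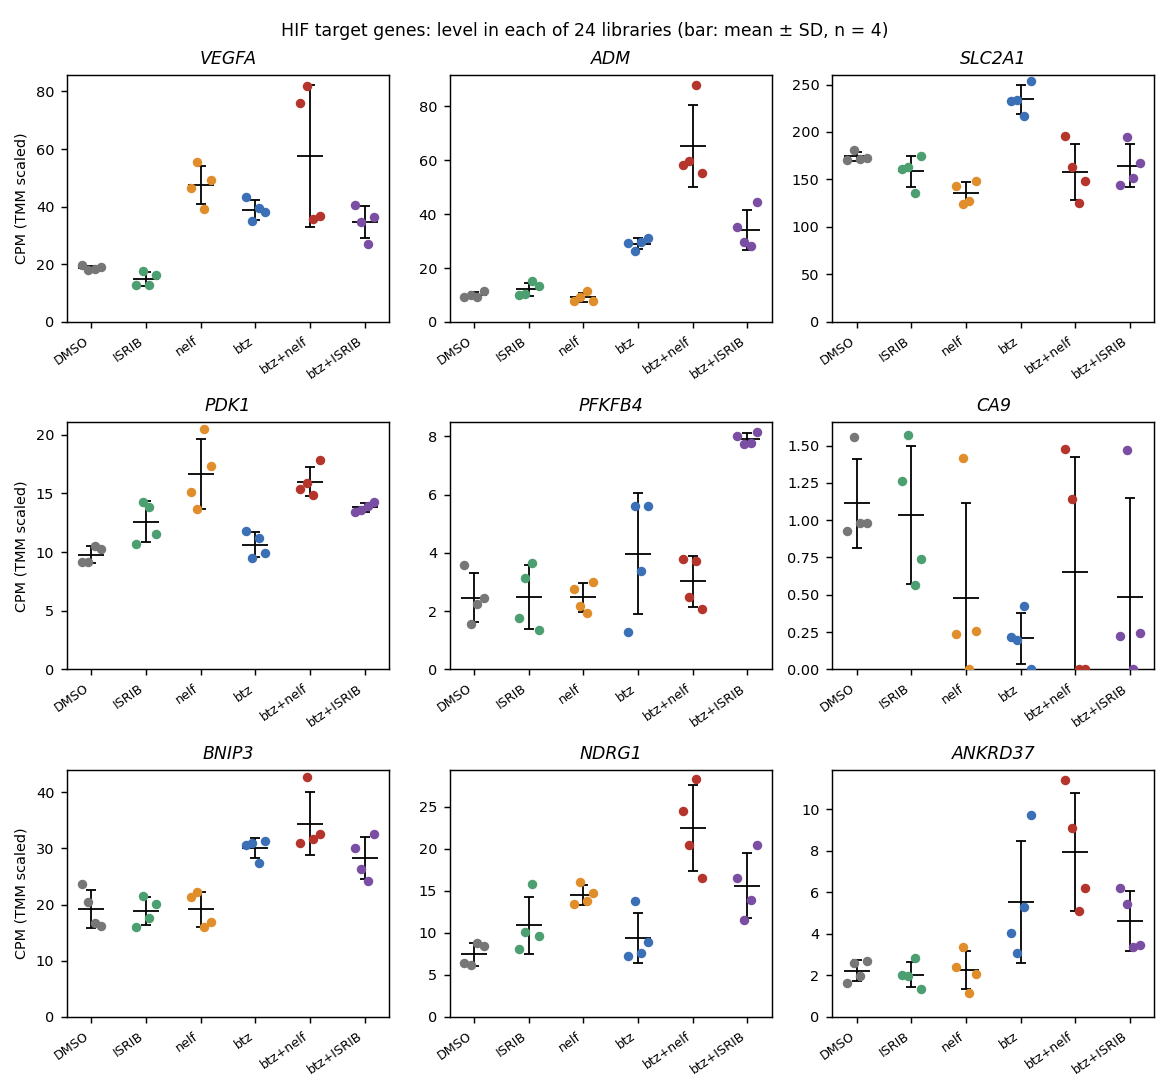
Level of the 9 tested genes in each of the 24 libraries, in CPM after TMM scaling, with a linear axis from 0 in each panel. Points are libraries, and bars are mean ± SD (n = 4, cut at 0 for CA9). ADM rises above DMSO in all 12 libraries with bortezomib, VEGFA in all 16 with bortezomib or nelfinavir, and PFKFB4 stands at 7.75 to 8.15 CPM in the 4 libraries with bortezomib and ISRIB.

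The first comparison asked what proteasome inhibition did to these genes. Bortezomib raised 5 of the 9 tested genes over DMSO and lowered none, by edgeR's quasi-likelihood test with an adjusted p under 0.05. The 5 were the secreted factors ADM and VEGFA, the ankyrin repeat gene ANKRD37, the mitophagy receptor gene BNIP3 and the glucose transporter gene SLC2A1, of which only ADM and VEGFA were called when libraries were scaled by their totals alone. Of all 12685 genes tested, 27.6% were called higher and 25.8% lower, so a call was common. The median log2 fold change of the 9 genes was 0.65, against 0.0017 over all genes.

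ADM (chr11:10326620-10328944, plus strand) encodes adrenomedullin, a vasodilator peptide. It stood at 9.30, 10.0, 9.24 and 11.4 CPM in DMSO and at 29.1, 26.2, 29.8 and 31.1 CPM in bortezomib. Every bortezomib library was above every DMSO library. The log2 fold change was 1.54 ± 0.18 (SE, n = 4 against 4, adjusted p = 5.5e-09), a 2.90-fold rise.

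VEGFA (chr6:43737921-43754224, plus strand), the main growth factor of blood vessels, lay at 19.6, 18.1, 18.2 and 19.0 CPM in DMSO. With bortezomib it lay at 43.4, 35.1, 39.5 and 38.0 CPM. The groups did not overlap, and the log2 fold change was 1.06 ± 0.20 (adjusted p = 2.9e-05).

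ANKRD37 (chr4:186317175-186321782, plus strand) was a low-count gene, with 14, 20, 14 and 22 counts in DMSO and 19, 16, 25 and 45 in bortezomib. In CPM this was 1.63, 2.60, 1.96 and 2.70 against 4.06, 3.10, 5.28 and 9.72. The groups stood apart, with bortezomib library 4 well above the other 3. The log2 fold change was 1.31 ± 0.37 (adjusted p = 0.0034), and without that library it was 0.84 with an adjusted p of 0.063. The 3′ end of ANKRD37 shares 226 bases with UFSP2 on the opposite strand, which had 4179 counts, and the strand setting of the counting is not given in the sources used here.

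BNIP3 (chr10:133781188-133795471, minus strand) moved from 23.6, 20.4, 16.7 and 16.2 CPM in DMSO to 30.6, 31.0, 27.5 and 31.3 CPM in bortezomib. The lowest bortezomib library lay above the highest DMSO library. The log2 fold change was 0.65 ± 0.15 (adjusted p = 5.1e-04). A stretch of 138 bases of its transcript matches the pseudogene BNIP3P1 at 99.3% identity, so some reads could be split between them.

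SLC2A1 (chr1:43391024-43424564, minus strand), which encodes the glucose transporter GLUT1, lay at 171, 181, 172 and 173 CPM in DMSO. It lay at 233, 234, 217 and 254 CPM in bortezomib, with no overlap. The log2 fold change was 0.43 ± 0.11 (adjusted p = 9.2e-04), and it became -0.069 when libraries were scaled by their totals alone.

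The other 4 tested genes did not pass the threshold. CA9 (chr9:35673925-35681156, plus strand), a cell-surface carbonic anhydrase that controls pH, had 8, 12, 7 and 8 counts in DMSO and 1, 1, 2 and 0 in bortezomib. The counts did not overlap, yet the log2 fold change of -2.31 ± 1.01 had an adjusted p of 0.054. Under 8 of the 9 other planned settings with all libraries CA9 was called lower, with adjusted p from 0.0155 to 0.0494, the exception being a stricter filter that removed it. It was also called lower without bortezomib library 3 (-2.89, adjusted p = 0.047). No bortezomib library reached the filter's minimum count of 5, so CA9 passed it through other groups. These repeats refit the same few counts, and their calls add no support for a fall. The CA9 gene overlaps ARHGEF39 on the opposite strand.

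PFKFB4 (chr3:48555117-48599448, minus strand), a bifunctional enzyme that sets the pace of glycolysis, spread from 1.28 to 5.62 CPM in bortezomib against 1.56 to 3.60 CPM in DMSO (0.68 ± 0.37, adjusted p = 0.12). It passed only when bortezomib library 1 was left out (0.92, adjusted p = 0.029). NDRG1 (chr8:134249418-134314265, minus strand), a stress-responsive gene, differed by 0.34 ± 0.24 on the log2 scale (adjusted p = 0.23). For PDK1 (chr2:173420101-173473397, plus strand), the kinase that shuts pyruvate dehydrogenase, it was 0.12 ± 0.17 (adjusted p = 0.58), with a 95% interval of -0.22 to 0.45.

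**Figure D2:**
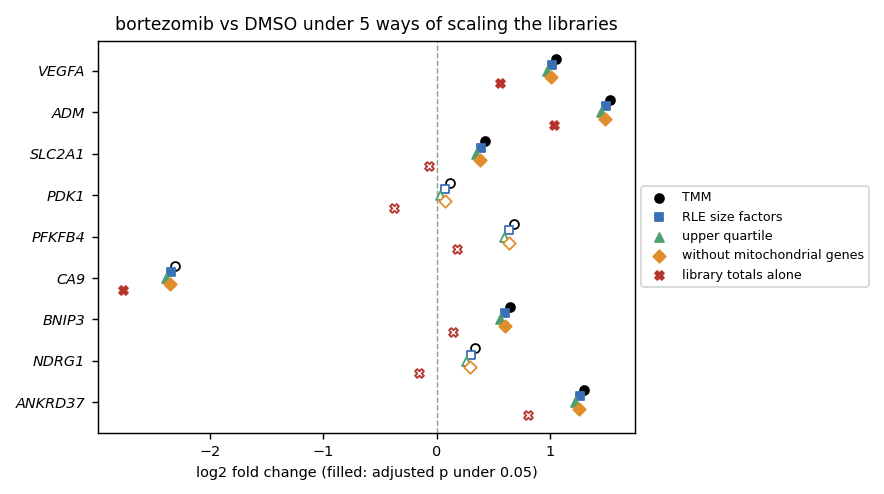
Log2 fold change of the 9 tested genes between bortezomib and DMSO under 5 ways of scaling the libraries. Filled points passed an adjusted p of 0.05. The 4 settings other than library totals alone lie close together, while library totals alone move every gene to the left and take SLC2A1 from 0.43 to -0.069.

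Calls in this comparison depended on how the libraries were scaled. Scaling by library totals alone moved the median of all genes by -0.50 on the log2 scale, and the calls became 2 higher (ADM and VEGFA) and 1 lower (CA9). The log2 fold changes were then 0.81 for ANKRD37 (adjusted p = 0.057) and 0.15 for BNIP3 (adjusted p = 0.42). All changes given here are therefore relative to the bulk of the genes. Shares of all genes are given for TMM scaling throughout. They do not apply to counts of calls made with library totals alone.

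**Figure D3:**
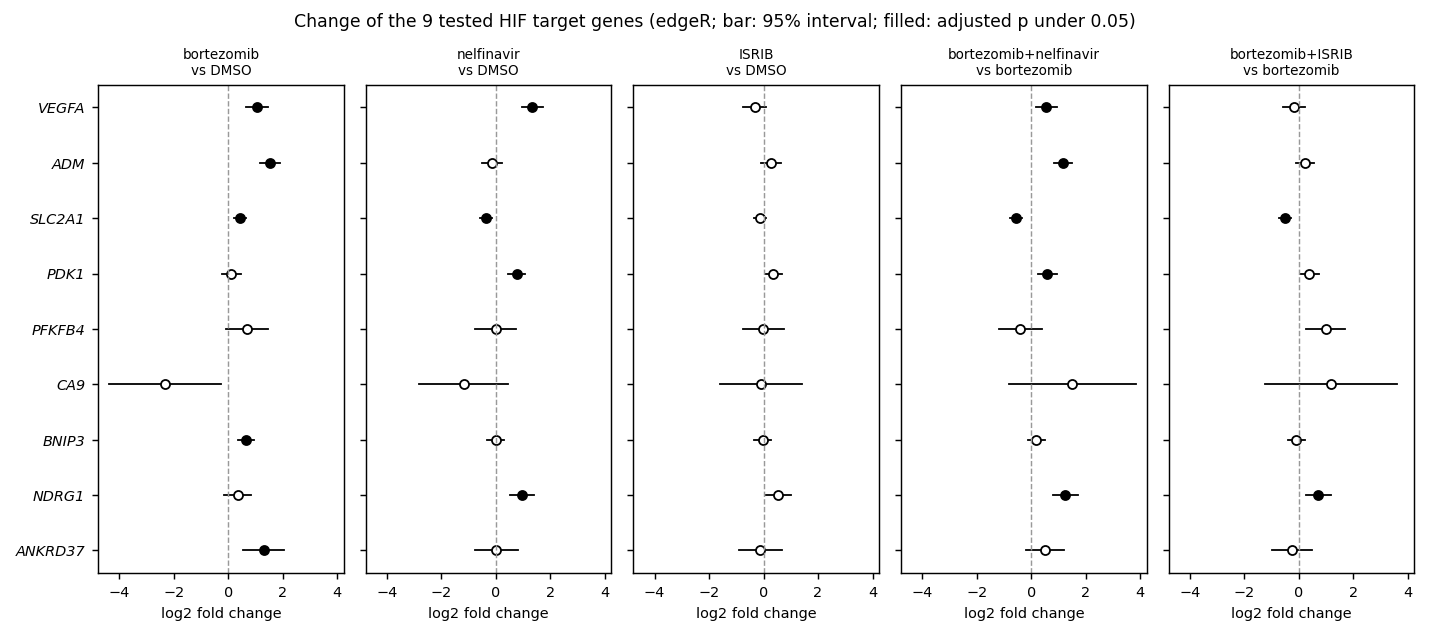
Log2 fold change with its 95% interval for the 9 tested genes in 5 comparisons, on 1 shared axis, with filled points where the adjusted p was under 0.05. Bortezomib raises 5 genes (2 with library totals alone), nelfinavir raises 3 and lowers SLC2A1, ISRIB alone moves none past the threshold, and both additions to bortezomib lower SLC2A1.

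Nelfinavir alone gave another set of calls. VEGFA, NDRG1 and PDK1 were higher than in DMSO and SLC2A1 was lower, so 3 of 9 rose against 10.4% of all genes and 1 of 9 fell against 8.84%. ADM, BNIP3 and ANKRD37, which bortezomib raised, had log2 fold changes of -0.14 ± 0.18, -0.0071 ± 0.15 and 0.019 ± 0.38. Both comparisons used the same DMSO libraries.

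With nelfinavir, VEGFA reached 46.5, 55.4, 39.2 and 49.1 CPM, all above the highest DMSO library. The log2 fold change was 1.34 ± 0.19 (adjusted p = 2.2e-06), a 2.53-fold rise. NDRG1 stood at 6.39, 6.12, 8.82 and 8.46 CPM in DMSO and at 13.4, 16.1, 13.8 and 14.7 CPM with nelfinavir. The groups were well apart, and the log2 fold change was 0.96 ± 0.22 (adjusted p = 0.0015).

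PDK1 went from 9.18, 9.11, 10.5 and 10.3 CPM to 15.1, 13.7, 20.5 and 17.3 CPM, again without overlap (0.77 ± 0.15, adjusted p = 3.7e-04). SLC2A1 fell to 143, 124, 127 and 148 CPM, below all 4 DMSO libraries. Its log2 fold change was -0.36 ± 0.11 (adjusted p = 0.013). Leaving out any 1 library kept all 4 calls, with the highest adjusted p at 0.0498 for SLC2A1.

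ISRIB alone moved none of the 9 genes past the threshold. By the same edgeR test, 0 of the 12685 genes were called higher and 0 lower (0% each way), with 703 at an unadjusted p under 0.05, while DESeq2 called 1 higher and 20 lower. The largest differences among the 9 were those of NDRG1, at 0.55 ± 0.22 (95% interval 0.089 to 1.00), PDK1, at 0.36 ± 0.16, and VEGFA, at -0.33 ± 0.20. VEGFA had 12.7, 17.6, 12.7 and 16.4 CPM, all under the lowest DMSO library, and PDK1 10.7, 14.3, 13.8 and 11.5 CPM, all over the highest. These spreads did not survive adjustment over all genes, and the smallest adjusted p of the 3 was 0.79.

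Adding nelfinavir to bortezomib asked how a drug used to raise ATF4 activity changed the bortezomib state. The paper reports that either addition also raised the ATF6 and XBP1 branches of the stress response. The comparisons therefore do not isolate ATF4. ADM, NDRG1, PDK1 and VEGFA were called higher than with bortezomib alone and SLC2A1 lower. That is 4 of 9 higher, against 15.6% of all genes, and 1 of 9 lower, against 13.4%. The median over the 9 genes was 0.56, against -0.017 over all genes, but it was 0.084 without libraries 1 and 2 of the combination and 0.90 without libraries 3 and 4.

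ADM reached 58.1, 59.9, 87.8 and 55.4 CPM with both drugs, its highest levels in the series. All 4 lay above the bortezomib libraries, and the log2 fold change was 1.17 ± 0.16 (adjusted p = 1.2e-06). NDRG1 rose from 7.27, 13.8, 7.60 and 8.86 CPM to 24.5, 20.4, 28.3 and 16.5 CPM (1.25 ± 0.23, adjusted p = 7.5e-05), without overlap.

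PDK1 rose from 11.8, 9.50, 11.2 and 9.94 CPM to 15.4, 15.9, 14.9 and 17.8 CPM, with no overlap (0.60 ± 0.17, adjusted p = 0.0065). SLC2A1 fell to 196, 163, 125 and 148 CPM, under all 4 bortezomib libraries. Its log2 fold change was -0.57 ± 0.11 (adjusted p = 1.2e-04), and its 4 levels straddled those of DMSO. When only the 8 libraries compared were used in the fit, VEGFA (adjusted p = 0.087) and PDK1 (adjusted p = 0.061) were no longer called.

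VEGFA split the 4 libraries with both drugs. Libraries 1 and 2 held 75.9 and 82.0 CPM, and libraries 3 and 4 held 35.8 and 36.8 CPM, which is within the range of bortezomib alone. The log2 fold change over all 4 was 0.56 ± 0.19 (adjusted p = 0.026). It was -0.055 (adjusted p = 0.84) without libraries 1 and 2, and 1.03 (adjusted p = 3.7e-06) without libraries 3 and 4. Leaving out library 1 alone gave 0.43 (adjusted p = 0.084), and library 2 alone 0.38 (adjusted p = 0.11). The same split ran through other genes. Over 6441 well-expressed genes the median absolute log2 difference was 0.148 between libraries 1 and 2 and 0.178 between libraries 3 and 4, but 0.226 to 0.278 across the pairs. CA9 had 7 and 5 counts in libraries 1 and 2 and 0 and 0 in libraries 3 and 4. ANKRD37 had 11.4 and 9.08 CPM against 5.11 and 6.19 CPM. The labels name no batch that divides these libraries, and leaving out either pair was an alternative added after seeing the data.

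**Figure D4:**
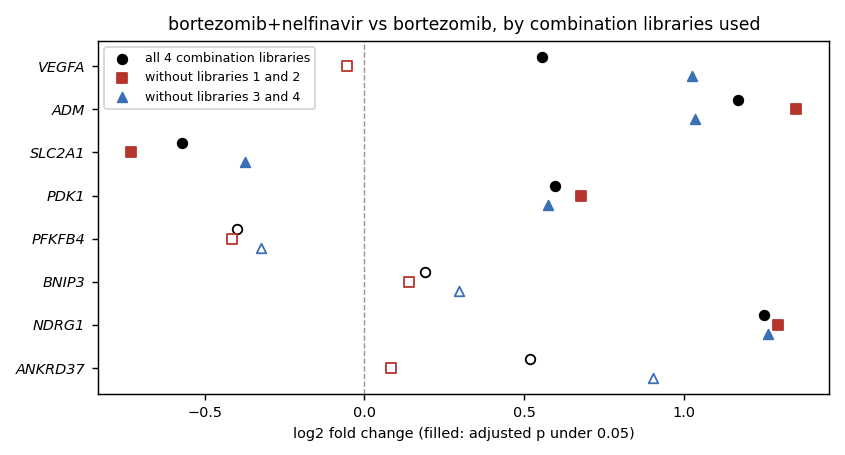
Log2 fold change of 8 genes between bortezomib with nelfinavir and bortezomib alone, with all 4 combination libraries, without libraries 1 and 2, and without libraries 3 and 4. Filled points passed an adjusted p of 0.05, and CA9 is left out because the remaining libraries held 0 counts. ADM, NDRG1, PDK1 and SLC2A1 keep their call and side in all 3 fits, whereas VEGFA moves from -0.055 to 1.03.

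ADM, NDRG1, PDK1 and SLC2A1 held in both reduced fits. ADM was 1.35 without libraries 1 and 2 and 1.03 without libraries 3 and 4, NDRG1 1.30 and 1.26, PDK1 0.68 and 0.57, and SLC2A1 -0.73 and -0.37. ANKRD37, at 0.52 ± 0.34 over all libraries, was called only when bortezomib library 4 was left out (0.97, adjusted p = 0.043). BNIP3 showed no call in any of these fits, at 0.19 ± 0.15 with a 95% interval of -0.11 to 0.50.

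The next comparison added ISRIB, the drug used to blunt ATF4 activity, to bortezomib. NDRG1 was called higher than with bortezomib alone and SLC2A1 lower, 1 of 9 in each direction, against 6.91% and 5.34% of all genes. SLC2A1 lay at 144, 195, 152 and 167 CPM, under all 4 bortezomib libraries, and its log2 fold change was -0.51 ± 0.11 (adjusted p = 0.0013). NDRG1 lay at 16.5, 11.5, 13.9 and 20.5 CPM, overlapping the bortezomib library at 13.8 CPM. Its log2 fold change of 0.72 ± 0.23 (adjusted p = 0.039) lost its call when any of bortezomib libraries 1, 3 and 4 or libraries 1 and 4 of the combination were left out, where it was 0.56 to 0.69 with adjusted p from 0.084 to 0.15. The call was also lost with library totals alone (0.65, adjusted p = 0.056) and when only the libraries compared were fitted (0.72, adjusted p = 0.10).

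PFKFB4 had its highest and most even levels here, at 8.01, 7.75, 7.79 and 8.15 CPM (36, 37, 37 and 33 counts). No library of the other 5 conditions exceeded 5.62 CPM. Against bortezomib alone the log2 fold change was 0.99 ± 0.35 with an adjusted p of 0.064. It passed with DESeq2 (0.98, adjusted p = 0.038) and without bortezomib library 2 (1.21, adjusted p = 0.043) or 4 (1.19, adjusted p = 0.045). ADM, VEGFA, BNIP3 and ANKRD37 had log2 fold changes of 0.24 ± 0.17, -0.17 ± 0.19, -0.091 ± 0.15 and -0.25 ± 0.36, none of them called. PDK1 stood at 13.4, 13.6, 13.9 and 14.3 CPM, over all bortezomib libraries, with an adjusted p of 0.14.

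The effect of bortezomib was also read on top of each other drug. Over nelfinavir alone, bortezomib with nelfinavir had 4 of 9 genes called, all higher, where 57.1% of all genes were called in either direction. ADM rose by 2.85 ± 0.17 on the log2 scale, a 7.20-fold difference (adjusted p = 2.1e-15), ANKRD37 by 1.81 ± 0.36, BNIP3 by 0.84 ± 0.15 and NDRG1 by 0.63 ± 0.21. NDRG1 was not called without combination library 3 (0.48, adjusted p = 0.071). With library totals alone, BNIP3 (0.33, adjusted p = 0.057) and NDRG1 (0.12, adjusted p = 0.63) were not called. In that setting PDK1 (-0.56, adjusted p = 0.0027) and SLC2A1 (-0.29, adjusted p = 0.021) were called lower, so 2 were higher and 2 lower. For VEGFA the log2 fold change was 0.27 ± 0.18 (adjusted p = 0.21). It was -0.39 (adjusted p = 0.043) without combination libraries 1 and 2, 0.69 (adjusted p = 1.7e-04) without libraries 3 and 4, and 0.42 without library 3 or library 4 alone, with adjusted p of 0.038 and 0.040. SLC2A1 (0.22 ± 0.11, adjusted p = 0.077) was called without combination library 3 (0.30, adjusted p = 0.016).

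Over ISRIB alone, bortezomib with ISRIB had 6 of 9 genes called, all higher, where 54.7% of all genes were called in either direction. PFKFB4 rose by 1.68 ± 0.36 (adjusted p = 1.6e-04), ADM by 1.50 ± 0.17, VEGFA by 1.22 ± 0.20, ANKRD37 by 1.18 ± 0.38, BNIP3 by 0.59 ± 0.15 and NDRG1 by 0.51 ± 0.22. NDRG1 was at the limit (adjusted p = 0.049). It was not called without ISRIB library 1, 2 or 4 or without combination library 1, 3 or 4, at 0.31 to 0.51 with adjusted p from 0.073 to 0.29, the lowest value being that without combination library 4. With all libraries its call held in 2 of 9 other planned settings, the stricter filter and the replicate block. It was lost with RLE (0.45, adjusted p = 0.083) or upper-quartile factors (0.42, adjusted p = 0.11), without mitochondrial genes (0.45, adjusted p = 0.086), with DESeq2 (0.46, adjusted p = 0.078), with no filter (0.44, adjusted p = 0.090) and with only the libraries compared (0.49, adjusted p = 0.082), each of which left 5 of 9 called, and it was -0.027 with library totals alone. ANKRD37 was not called without combination library 1 (0.95, adjusted p = 0.054). With library totals alone 3 were called higher (PFKFB4, ADM and VEGFA) and 2 lower (PDK1 at -0.41 and SLC2A1 at -0.49).

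The combinations were compared with each other as well. Bortezomib with nelfinavir exceeded bortezomib with ISRIB in ADM (0.93 ± 0.16, adjusted p = 4.3e-05) and VEGFA (0.73 ± 0.19, adjusted p = 0.0049), and lay below it in PFKFB4 (-1.38 ± 0.36, adjusted p = 0.0049). These 3 of 9 compare with 24.4% of all genes called. The VEGFA difference was 0.12 (adjusted p = 0.63) without combination libraries 1 and 2. NDRG1, at 0.53 ± 0.22 (adjusted p = 0.072), was called without library 2 or 4 of bortezomib with nelfinavir or library 4 of bortezomib with ISRIB, at 0.62, 0.69 and 0.73.

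Interaction terms tested whether a drug acted differently with and without bortezomib. For nelfinavir, 2 of 9 were called, against 19.7% of all genes. ADM had an interaction of 1.31 ± 0.24 on the log2 scale (adjusted p = 1.8e-04), its nelfinavir log2 fold change being -0.14 without bortezomib and 1.17 with it. VEGFA had an interaction of -0.79 ± 0.27 (adjusted p = 0.036), from 1.34 without bortezomib to 0.56 with it. The VEGFA term was -1.40 (adjusted p = 7.2e-06) without combination libraries 1 and 2 and -0.31 (adjusted p = 0.30) without libraries 3 and 4. It was also lost when single libraries were left out, namely DMSO 2, 3 or 4, nelfinavir 2 or 4, bortezomib 1, 3 or 4, or combination 3 or 4, at -0.58 to -0.79 with adjusted p from 0.051 to 0.091. The ADM term was 1.50 and 1.18 without either pair. CA9, at 2.69 ± 1.39 (adjusted p = 0.18), was called without nelfinavir library 2 (4.10, adjusted p = 0.049), which held 11 of the 15 counts of that group, and without combination libraries 3 and 4 (3.74, adjusted p = 0.042). The interaction of SLC2A1 was -0.21 ± 0.15 (adjusted p = 0.36), that of NDRG1 0.29 ± 0.32 and that of PDK1 -0.17 ± 0.23. For ISRIB, 0 of 9 were called, against 4.82% of all genes; the largest terms were PFKFB4 at 0.99 ± 0.51 (adjusted p = 0.30) and SLC2A1 at -0.38 ± 0.15 (adjusted p = 0.15), leaving out CA9 with its few counts.

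The genes of the HIF pathway itself were read next, 13 of 16 passing the filter. Bortezomib raised 5 and lowered 3 of the 13, where 27.6% of all genes were called higher and 25.8% lower. Transcripts of HIF1A (chr14:62162231-62214977, plus strand), the oxygen-regulated subunit, stood at 70.5, 63.5, 65.8 and 72.1 CPM in DMSO and at 89.0, 113, 116 and 111 CPM in bortezomib. The groups did not overlap (0.66 ± 0.11, adjusted p = 4.1e-06). EPAS1 (chr2:46520806-46613836, plus strand), the alternative alpha subunit, rose by 0.28 ± 0.096 on the log2 scale (adjusted p = 0.013), but -0.21 with library totals alone. The coactivator genes CREBBP and EP300 rose by 0.60 ± 0.11 and 0.46 ± 0.10, and the prolyl hydroxylase gene EGLN2 by 0.51 ± 0.19. With library totals alone, none of these 5 was called, and EP300 stood at -0.044. With upper-quartile factors, EPAS1 (0.20, adjusted p = 0.078) and EGLN2 (0.43, adjusted p = 0.051) were not called.

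On the other side, RBX1 and TCEB2, subunits of the VHL ubiquitin ligase, fell by 0.88 and 0.63 with bortezomib, and the hydroxylase gene EGLN1 fell by 0.51. VHL itself had 0.27 ± 0.14 (adjusted p = 0.11). ARNT, HIF1AN, CUL2 and TCEB1 were not called. ARNT, at -0.42, was called lower with upper-quartile factors (-0.51, adjusted p = 0.031), without mitochondrial genes (-0.47, adjusted p = 0.047) and with library totals alone (-0.92), the last of which also called CUL2 lower (-0.77).

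Nelfinavir alone raised VHL (0.56 ± 0.14) and EP300 (0.28 ± 0.10, adjusted p = 0.049) and lowered CUL2 (-0.58 ± 0.17). The EP300 call was lost under each of the 4 other scalings, at 0.26 to 0.28. Added to bortezomib, nelfinavir raised 7 of the 13, against 15.6% of all genes, and lowered HIF1A. HIF1A then stood at 87.3, 66.5, 78.4 and 69.3 CPM, under every bortezomib library (-0.51 ± 0.11, adjusted p = 5.6e-04). EPAS1 stood at 156, 157, 150 and 141 CPM, above them all (0.68 ± 0.096, adjusted p = 1.8e-06). The other 6 were VHL (0.85), ARNT (0.67), EGLN2 (0.56), EGLN1 (0.53), CREBBP (0.50) and EP300 (0.32). Of these, ARNT was not called without combination libraries 1 and 2, nor were EGLN1, EGLN2 and EP300 without libraries 3 and 4.

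ISRIB added to bortezomib raised EPAS1 to 172, 191, 165 and 163 CPM from 99.0, 93.5, 98.2 and 86.9 CPM (0.87 ± 0.096, adjusted p = 5.0e-08) and lowered CREBBP (-0.36 ± 0.11). Among the 13, EPAS1 was thus raised by bortezomib (not with library totals alone or upper-quartile factors) and again by either addition, whereas HIF1A was highest with bortezomib alone. For HIF1A the ISRIB addition gave -0.30, which was called only with library totals alone (-0.36, adjusted p = 0.026).

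**Figure D5:**
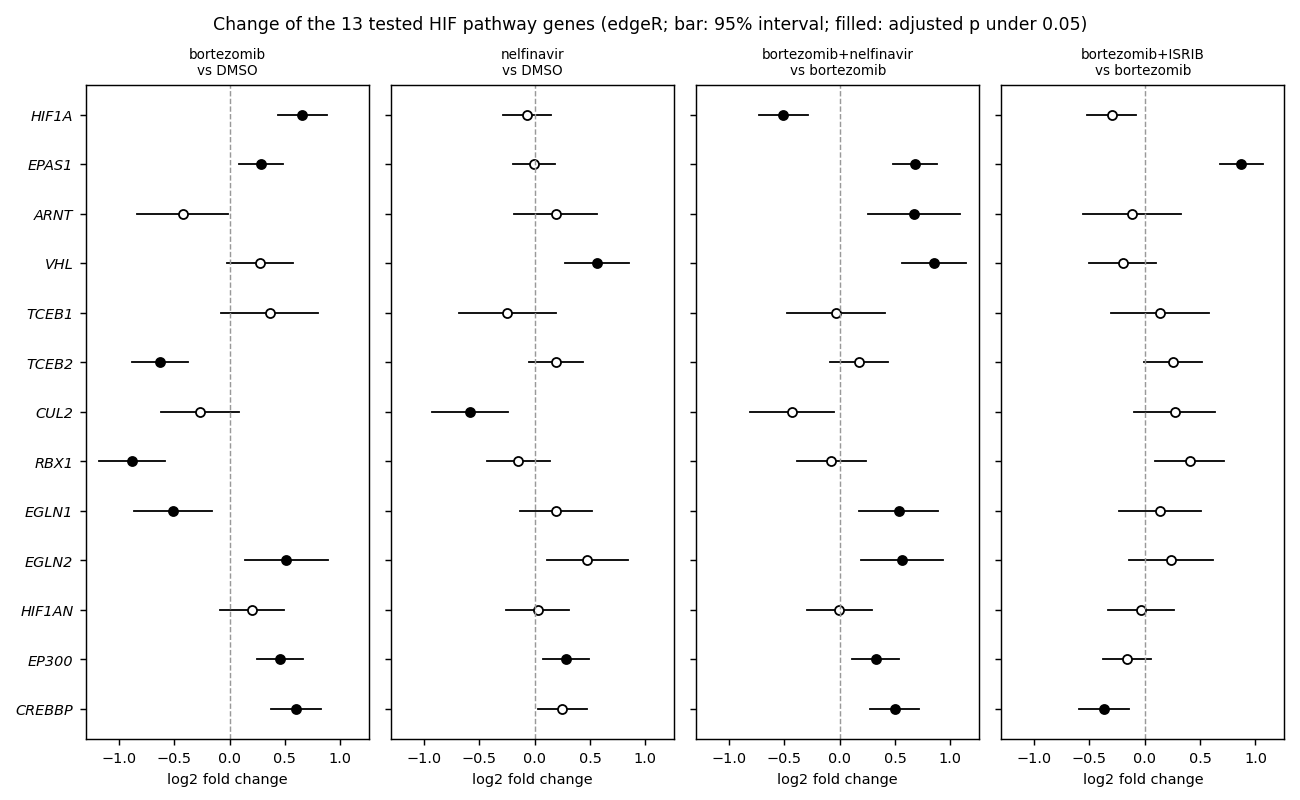
Log2 fold change with its 95% interval for the 13 tested genes of the HIF pathway in 4 comparisons, on 1 shared axis, with filled points where the adjusted p was under 0.05. HIF1A is higher with bortezomib and lower when nelfinavir is added, while EPAS1 is higher in all 3 comparisons that involve bortezomib; with library totals alone, EPAS1 between bortezomib and DMSO is -0.21.

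With bortezomib, the wider target lists held calls in both directions, as did all genes. Of 16 tested glycolysis and lactate genes, bortezomib raised 3 and lowered 5, with a median of -0.13, against the same 27.6% and 25.8% of all genes. PFKFB3, which like PFKFB4 sets the pace of glycolysis, rose by 1.69 ± 0.38, and the glycolytic enzyme genes PKM and PGK1 rose by 0.42 and 0.28. The neuronal-type glucose transporter gene SLC2A3 fell by 1.71, from 293 ± 17.2 to 89.3 ± 11.7 CPM, the lactate dehydrogenase gene LDHA by 0.82 and GPI by 0.69. With library totals alone the count was 1 higher and 13 lower, with PKM at -0.080 and PGK1 at -0.22. That scaling lowered the median of all genes, so the shares with TMM do not apply to this count. PGK1 was not called with upper-quartile factors (0.20, adjusted p = 0.085). With TMM scaling, 1 glucose transporter gene, SLC2A1, was thus higher and another, SLC2A3, lower in the same libraries, while with library totals alone SLC2A1 had no call.

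Nelfinavir alone raised none of the 16 and lowered SLC2A3 by 1.60 and LDHA by 0.32. Added to bortezomib it raised PFKFB3 (1.36 ± 0.33), the hexokinase gene HK2 (1.10 ± 0.17) and GPI (0.39 ± 0.091), and lowered TPI1 (-0.31 ± 0.090) and LDHA (-0.22 ± 0.084). Without combination libraries 1 and 2, TPI1 was not called, nor were GPI and LDHA without libraries 3 and 4. ISRIB added to bortezomib raised LDHA (0.42 ± 0.084), SLC2A3 (0.43 ± 0.12) and PGAM1 (1.46 ± 0.49, adjusted p = 0.049), lowering none. The PGAM1 call was lost with library totals alone (1.38, adjusted p = 0.058). Between bortezomib and DMSO, PGAM1 had -1.12 (adjusted p = 0.0503) and was called lower under each of the 4 other scalings, at -1.16 to -1.61.

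Among 39 tested genes of a wider list of HIF targets, bortezomib raised 20 and lowered 9 (median 0.49), where 27.6% and 25.8% of all genes were called. With library totals alone it was 14 higher and 13 lower (median -0.0041), a count to which the shares with TMM do not apply. Nelfinavir alone raised 11 and lowered 2, against 10.4% and 8.84% of all genes, and nelfinavir added to bortezomib raised 9 and lowered 5, against 15.6% and 13.4%. IGFBP1, an insulin-like growth factor binding protein gene, went from 2.41 ± 1.13 CPM in DMSO to 80.1 ± 6.40 CPM with bortezomib, 71.9 ± 32.7 CPM with nelfinavir and 260.2 ± 20.3 CPM with both. VLDLR, a lipoprotein receptor gene, rose by 4.25 ± 0.57 with bortezomib and by 4.79 ± 0.53 with nelfinavir, from 6 counts over the 4 DMSO libraries. CA12, a carbonic anhydrase gene like CA9, had 0 counts in DMSO and 29 over the 4 bortezomib libraries. VLDLR and CA12 passed the expression filter through groups other than DMSO. They could therefore only be called higher than DMSO, and their calls add no support. Both are among the 20 raised by bortezomib, and VLDLR is among the 11 raised by nelfinavir. The genes that fell most with bortezomib were LOX (-1.67 ± 0.28), a collagen cross-linking enzyme, SAP30 (-1.62 ± 0.24), a histone deacetylase complex subunit, and FAM162A (-1.25 ± 0.12).

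DDIT4, a stress-induced inhibitor of mTOR signalling, rose by 2.96 ± 0.095 with nelfinavir alone, where GYS1 (-0.88 ± 0.20) and ERO1L (-0.31 ± 0.10) fell. With nelfinavir added to bortezomib, IGFBP1 (1.70 ± 0.20), BHLHE40 (1.44 ± 0.32) and VLDLR (1.28 ± 0.36) rose most, and TFRC (-0.69 ± 0.086), P4HA1 (-0.62 ± 0.11) and KDM4B (-0.42 ± 0.15) fell most; VLDLR and KDM4B were not called without combination libraries 1 and 2. With ISRIB added, 4 of the 39 rose and 4 fell, against 6.91% and 5.34% of all genes. The highest rises were in BHLHE40 (1.55 ± 0.32), INSIG2 (0.94 ± 0.23) and PLOD2 (0.72 ± 0.14), and the largest falls in NFIL3 (-1.10 ± 0.14), STC2 (-0.96 ± 0.10) and DDIT4 (-0.94 ± 0.086). As a reference, of 9 tested ATF4 targets, bortezomib raised 8 and nelfinavir all 9, with medians of 2.45 and 2.52. Of all genes, 27.6% and 10.4% were called higher in these comparisons. Nelfinavir added to bortezomib raised 6 of these 9 (median 0.77), against 15.6% of all genes. ISRIB added to bortezomib lowered 4 of them (median -0.23), against 5.34% of all genes. ISRIB alone moved none of the genes of these lists past the threshold.

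Over the 24 libraries, the genes whose log2 CPM followed each HIF target most closely were described by Pearson's r across all tested genes. The libraries share drug groups, so r mostly reflects group means and carries no test. For ADM the closest were SERPINH1 (r = 0.98), VCP (0.97) and DNAJB1 (0.97). For VEGFA they were CEBPB (0.95), CEBPG (0.93) and GARS (0.93), and for BNIP3 SUPV3L1 (0.94), SLMAP (0.93) and C1orf27 (0.92). ANKRD37 was closest to AZIN1 (0.89), RAB21 (0.89) and PTPRK (0.88), and CA9 to CAMK2D (0.89), ENY2 (0.84) and MRPL33 (0.84). NDRG1 was closest to CDK2AP2 (0.87), TMEM214 (0.85) and MGAT1 (0.84), and PDK1 to DUSP3 (0.84), ARMCX3 (0.82) and MT1E (0.82). SLC2A1 was closest to GART (0.83), NOL8 (0.83) and ODC1 (0.82), and PFKFB4 to RFX1 (0.77), PDLIM7 (0.76) and EYA3 (0.75). No gene's 3 closest included another of the 9. Among the 9 themselves, ADM and BNIP3 were the most alike (r = 0.856), followed by ADM and ANKRD37 (0.806), BNIP3 and ANKRD37 (0.791) and NDRG1 and PDK1 (0.709), whereas PDK1 and SLC2A1 ran in opposite directions (-0.603).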

How the data were processed

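RNA-seq counts of HepG2 cells in 6 conditions with 4 biological replicates each were analysed. The authors made QuantSeq 3′ FWD libraries, trimmed the reads with cutadapt 2.8 and aligned them to hg19 with STAR, and deposited raw read counts for 18915 genes. Which program counted the reads, and with which strand setting, is not given in the sources used here. Summed over genes, the counts reach 5154533 to 6943164 per library. Reads without molecular identifiers are not independent molecules.

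The edgeR expression filter filterByExpr, with a minimum count of 5 and a minimum total of 25, left 12685 genes. They were tested with edgeR's quasi-likelihood test (edgeR 4.0.16, R 4.3.3) after TMM scaling, with all 24 libraries in 1 model and Benjamini-Hochberg adjustment over all 12685 genes. A call means an adjusted p under 0.05. Library totals and mitochondrial shares were put to a two-sided exact permutation test (SciPy 1.17.1). Levels are TMM-scaled CPM computed from the counts, and log2 CPM for correlations used a prior count of 2. The fitting script was tested on simulated data. Alternatives were other scalings, no filter and the stricter default filter, DESeq2 1.42.0, only the libraries compared, a replicate block, and each library left out in turn.

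The members, gene lists, motifs and tests were chosen with earlier results of these data known. Text named all 10 members, all tested pathway genes where called, and per main comparison the 3 glycolysis genes and the 3 wider HIF targets with the largest called change in each direction. For each tested member, the 3 genes with the highest Pearson r were named. The 95% intervals are those of the fit. Gene positions are from GENCODE on GRCh37, and promoter sequences from RefSeq on GRCh38.p14.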

Additional observations from a re-analysis of the deposited data

Results flagged for a closer look

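ADM and VEGFA answered nelfinavir differently with and without bortezomib, by the interaction term of edgeR's quasi-likelihood test. The ADM term was 1.31 on the log2 scale (adjusted p = 1.8e-04), and all 4 libraries with both drugs lay above all 8 with 1 of them. The VEGFA term was -0.79 (adjusted p = 0.036), and it rests on which combination libraries are used: -1.40 (adjusted p = 7.2e-06) without libraries 1 and 2, and -0.31 (adjusted p = 0.30) without libraries 3 and 4.

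In 5 of the 54 sets of 4 libraries, made of 9 genes in 6 conditions, the highest library stood farther from the others than Dixon's 95% critical value for 4 values allows. Chance flags about 1 in 20 such sets. They were CA9 in DMSO (1.56 CPM), CA9 in bortezomib with ISRIB (1.47 CPM, from 7 counts), ADM in bortezomib with nelfinavir (87.8 CPM), BNIP3 in bortezomib with nelfinavir (42.7 CPM) and SLC2A1 in DMSO (181 CPM). CA9 rests on few counts throughout. The ADM call between bortezomib with nelfinavir and bortezomib held without each library in turn, at 1.02 to 1.28. The split of the bortezomib with nelfinavir libraries into pairs is not seen by this measure, because neither end of the 4 values stands alone.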

How the results depend on the processing

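For the 9 tested genes in 10 comparisons, 1589 of 1660 planned repeats of a fold change stayed on the same side of the threshold, 43 lost the call, 23 gained it and 5 turned. All 5 turned under library totals alone: SLC2A1 between bortezomib and DMSO (-0.069), between both drugs and nelfinavir (-0.29) and between bortezomib with ISRIB and ISRIB (-0.49), and, in the last comparison, PDK1 (-0.41) and NDRG1 (-0.027). Without combination libraries 1 and 2, an added setting, VEGFA turned to -0.055 against bortezomib and to -0.39 against nelfinavir. Those totals include the mitochondrial share that rose with bortezomib; whether that share is the cause was not tested.

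Counts of called genes that moved were these. Between bortezomib and DMSO, 2 were higher with library totals alone instead of 5, and 1 was lower (CA9) instead of 0 with RLE, upper-quartile or total scaling, without mitochondrial genes, with DESeq2, with no filter, with only the libraries compared and with the replicate block (-2.43, adjusted p = 0.030); leaving out 1 library gave 0 to 1. The stricter default filter removed CA9. Nelfinavir added to bortezomib raised 2 instead of 4 with only the libraries compared. For ISRIB added to bortezomib, the count of 1 higher became 0 with library totals alone or only the libraries compared, 2 with DESeq2, and 0 to 2 with 1 library left out. Between bortezomib with nelfinavir and nelfinavir alone, 4 higher became 2 higher and 2 lower (PDK1 and SLC2A1) with library totals alone. The nelfinavir interaction had 1 to 2 calls with 1 library left out. The other causes were not tested.

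No source ties equal replicate numbers to a shared culture, so the main model did not pair the samples. Deviations from the group means had r over 0.1 in 10 of 60 equal-number pairs and in 7 of 180 other pairs. This was more frequent among equal numbers, though the highest r was 0.215 there and 0.221 among the others. The replicate block is the fit that allows for an effect shared by equal numbers. The replicate block changed no other count of the members by more than 1.5 times. Depth limits CA9, at 7 to 12 counts per DMSO library, to wide intervals, and EGLN3 to no test.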
